A study of Mus musculus with 12 samples.

Results

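The polyamine synthesis and control genes are 10 named mouse genes, taken by symbol from the 39179 gene IDs of the deposited count table: Odc1, Amd1, Srm and Sms of synthesis, Sat1 of breakdown, Oaz1, Oaz2 and Azin1 of antizyme control, and Dhps and Dohh of hypusination. All 10 had a row in the table, and all 10 passed the filter on low counts. They were read in RNA sequencing of Th1 cells, a class of mouse T helper cell known for interferon-gamma, from 2 wild-type (WT) and 2 LDHA-KO libraries. LDHA is lactate dehydrogenase A, which makes lactate from pyruvate at the end of glycolysis. The labels give the 2 groups the same cells and treatment. These were primary T cells on the C57BL/6 background, activated as naive CD4+ cells with anti-CD3 (5 µg/ml) and anti-CD28 (2 µg/ml). They were kept for 3 days with IL-2 (100 U/ml), anti-IL-4 (10 µg/ml) and IL-12 (10 ng/ml). Restimulation followed for 4 h with PMA (50 ng/ml) and ionomycin (1 µM) under GolgiStop, a blocker of secretion. The labels name the genotype as LDHA-KO only, with no allele, Cre driver or age of the animals.

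Polyamines are small positively charged molecules (putrescine, spermidine, spermine) that bind nucleic acids and are needed for growth; T cells raise their synthesis when they are activated. Ornithine decarboxylase makes putrescine, and decarboxylated S-adenosylmethionine supplies the aminopropyl groups that turn putrescine into spermidine and spermine. Antizymes bind ornithine decarboxylase and send it to the proteasome, an antizyme inhibitor takes antizyme away, and spermidine is also the substrate for hypusine, a modified lysine found in the translation factor eIF5A.

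Ldha, the targeted gene, had 1055 and 1006 counts in the WT libraries against 42 and 53 with LDHA-KO, so both LDHA-KO libraries matched their label. Library totals were 919741 to 1293178 counts, so that 1 count was worth 0.773 to 1.09 CPM (a count scaled to a common library total), and replicates of a genotype are libraries that nothing in the labels ties to separate animals. The 6 T cell markers were present in both genotypes (summed 1172 to 1283 CPM in WT, 1114 to 1152 in LDHA-KO). Within that sum, Cd3e, Cd3d and Cd4 were higher in both LDHA-KO libraries, Cd5 and Cd28 were lower, and Cd3g overlapped. The 4 Th1 markers summed to 1933 to 1939 CPM in WT and 604 to 626 in LDHA-KO. Most of this sum was Ifng, with 1585 and 1580 CPM in WT and 382 and 387 in LDHA-KO. Tbx21 had 133 and 123 CPM in WT and 111 and 102 in LDHA-KO. Of 14 markers of CD8 T, B, myeloid, NK and red cells, 7 were at 0 in each genotype, among them Lyz2, Adgre1 and Ncr1; the 14 summed to 342 to 350 CPM in WT and 405 to 427 in LDHA-KO, nearly all of it from Csf1r (348 to 462 counts), and the part of such cells in the results was not tested. The strand setting of the counting is not given in the sources used here, and counts of mt-Nd6, which lies on the strand opposite to mt-Cytb and is shorter (519 against 1144 bp), were 3.72 to 6.21 times those of mt-Cytb in each library. If the opposite strand was counted, every count given here is of reads opposite in strand to its gene, those of Ldha and the markers included. Each rise or fall of a gene below would then be of such reads. Where Dhps, Mat2a and Eif5a overlap a gene on the opposite strand, such reads could be that gene's own. This was not tested.

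The start regions of the 2 members that moved most, Odc1 and Sat1, are shown as RefSeq gives them on GRCm38.p6, read on the gene's strand and ending just before its outermost annotated transcript. Odc1 lies on the plus strand (chr12:17544623-17544807, 185 bases) and Sat1 on the minus strand (chrX:155216450-155216699, 250 bases).
Odc1: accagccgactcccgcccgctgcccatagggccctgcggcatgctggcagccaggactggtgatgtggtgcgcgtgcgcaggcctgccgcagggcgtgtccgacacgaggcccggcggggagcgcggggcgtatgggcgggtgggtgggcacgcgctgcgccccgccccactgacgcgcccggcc
Sat1: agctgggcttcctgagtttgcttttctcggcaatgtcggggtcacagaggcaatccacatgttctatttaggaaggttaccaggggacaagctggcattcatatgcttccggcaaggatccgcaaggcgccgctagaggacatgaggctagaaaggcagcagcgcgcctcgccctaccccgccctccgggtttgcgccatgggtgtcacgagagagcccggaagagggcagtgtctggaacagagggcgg
Neither stretch holds CACGTG, the E-box bound by MYC with its partner MAX. MYC is a known activator of Odc1, and sequence beyond the start windows was not searched. Start windows of 300 bases (250 before to 50 after a start) were at hand for 8 of the 10 members, in 9 windows, and 2 windows held the motif, against 7.15% of all 32851 windows (it reads the same on both strands). These 2 stretches of 30 bases, with the motif in capitals, are from Dohh on the plus strand (chr10:81384424-81384453) and from Sms on the minus strand (chrX:157492466-157492495).
Dohh: gcccagcatggtCACGTGgccatcaagatg
Sms: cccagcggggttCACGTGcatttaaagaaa
The motif begins at base 3 of the transcript in Dohh and 196 bases before the start in Sms. A match is a description of the letters and not a binding site. GC content was 78.0% in the Odc1 window and 60.3% in the Sat1 window, where the median of all windows was 52.7%.

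Of the 10 members, 2 rose and 1 fell in LDHA-KO at an adjusted p under 0.05, and 7 did not pass the test. Over all 9914 tested genes 31.0% were called, 15.6% higher and 15.4% lower, so the members' share was near the background. With library totals alone the calls over all tested genes split into 1170 higher and 1886 lower, against 1549 and 1527 with TMM scaling. The members' median log2 fold change was -0.10, and that of all tested genes was -0.01. WT and LDHA-KO libraries did not overlap for 4 members, against 64.3% of all tested genes. The call for Odc1 held in all 10 alternative analyses run; those for Sat1 and Dohh did not, and with DESeq2, which called 11.0% of the genes it tested, Odc1 was the 1 member called. In bulk RNA, fewer cells of a type and less RNA per cell cannot be told apart.

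**Figure D1:**
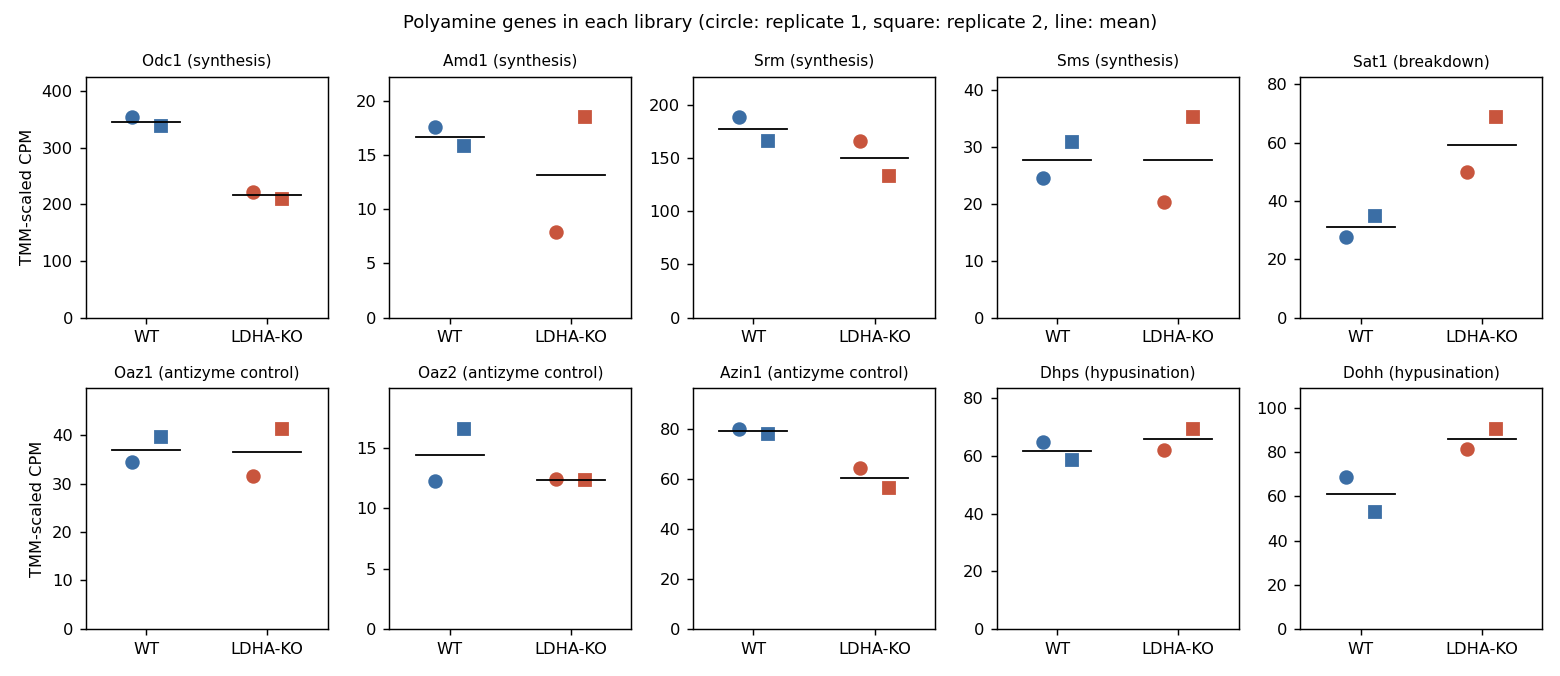
Level of each of the 10 genes in TMM-scaled CPM (y axis, from 0, its own scale in each panel) in the 2 WT and 2 LDHA-KO libraries; points are libraries and lines are means. Odc1 and Azin1 sit lower in both LDHA-KO libraries and Sat1 and Dohh higher, while the other 6 overlap.

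Among the synthesis genes, Odc1 fell. It encodes ornithine decarboxylase, the enzyme that makes putrescine and is held to be rate-limiting (ENSMUSG00000011179; chromosome 12, 17544808 to 17551502, GRCm38.p6). Its level was 354 and 338 CPM in the WT libraries and 222 and 210.4 CPM in the LDHA-KO libraries. Both LDHA-KO libraries lay well below both WT libraries, and replicates were close to each other. The means were 346 ± 11.2 and 216 ± 7.88 CPM (SD, n = 2 each), a 1.61-fold lower level (log2 fold change -0.68, SE 0.09, 95% interval -0.87 to -0.50, edgeR adjusted p = 8.04e-08). With 196 to 463 counts per library, it is the most deeply counted of the 10 genes. The log2 fold change ran from -0.77 with library totals alone to -0.64 without LDHA-KO replicate 2. The snoRNA model that lies within Odc1 had 0 counts.

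Srm encodes spermidine synthase, which adds the aminopropyl group to putrescine (ENSMUSG00000006442). It had 188 and 166 CPM in WT and 166 and 133 CPM in LDHA-KO, and LDHA-KO replicate 1 lay level with WT replicate 2. The log2 fold change was -0.26 (SE 0.12, 95% interval -0.50 to -0.02), which did not pass the test (edgeR adjusted p = 0.0891). It was called lower with library totals alone (-0.35, adjusted p = 0.0252) and without LDHA-KO replicate 1 (-0.40, adjusted p = 0.0335). The value shrank to -0.08 when LDHA-KO replicate 2 was left out (adjusted p = 0.760) and to -0.17 when WT replicate 1 was left out (adjusted p = 0.432).

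Amd1 encodes S-adenosylmethionine decarboxylase, the source of the aminopropyl groups (ENSMUSG00000075232). It held 23 and 20 counts in the WT libraries against 7 and 21 with LDHA-KO, or 17.6 and 15.8 CPM against 7.91 and 18.5 CPM. LDHA-KO replicate 1 was low and replicate 2 was above both WT libraries, so the groups overlapped. The log2 fold change was -0.27 (SE 0.36, edgeR adjusted p = 0.611), with a 95% interval of -0.99 to 0.45 that covers changes of Odc1's size in the lower direction; it was 0.16 without LDHA-KO replicate 1 and -1.06 without replicate 2.

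Sms encodes spermine synthase (ENSMUSG00000071708). Its level was 24.5 and 30.8 CPM in WT and 20.3 and 35.2 CPM in LDHA-KO, and the LDHA-KO libraries lay on either side of both WT libraries. The log2 fold change was 0.05 (SE 0.26, 95% interval -0.48 to 0.59, edgeR adjusted p = 0.900). Its sign turned with library totals alone (-0.03), or with WT replicate 1 (-0.10) or LDHA-KO replicate 2 (-0.43) left out.

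Sat1, on the breakdown side, rose and had the largest change of the 10 genes. It encodes spermidine/spermine acetyltransferase, which acetylates polyamines for export or oxidation (ENSMUSG00000025283; chromosome X, 155213126 to 155216449). It held 36 and 44 counts in the WT libraries against 44 and 78 with LDHA-KO, or 27.5 and 34.8 CPM against 49.7 and 68.7 CPM. Both LDHA-KO libraries were higher than both WT libraries, and they differed more from each other than the WT libraries did. The means were 31.2 ± 5.12 and 59.2 ± 13.4 CPM (SD, n = 2 each), 1.94-fold higher (log2 fold change 0.95, SE 0.21, 95% interval 0.53 to 1.38, edgeR adjusted p = 0.000477). The call was lost without LDHA-KO replicate 2 (0.68, adjusted p = 0.0749) and with DESeq2 (0.94, DESeq2 adjusted p = 0.0696). Sat1 overlaps no other RefSeq gene.

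**Figure D2:**
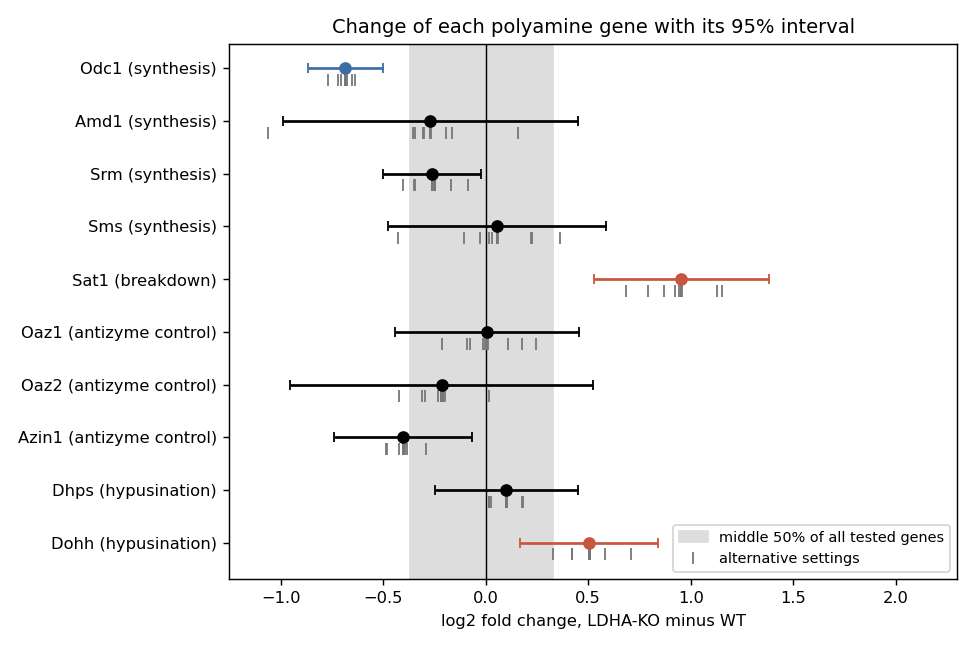
Fitted log2 fold change of each gene, LDHA-KO minus WT (x axis), with its 95% interval; blue is called lower, red higher, black not called, grey ticks are the alternative settings and the grey band is the middle 50% of all tested genes (-0.37 to 0.33). The intervals of the 3 called genes lie off 0, as do those of Srm and Azin1, which missed the adjusted threshold, and those of Amd1, Sms, Oaz1 and Oaz2 are the widest of the uncalled genes.

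None of the 3 antizyme genes passed the test. Azin1 encodes antizyme inhibitor 1, a relative of ornithine decarboxylase without its activity that binds antizyme in its place (ENSMUSG00000037458). It had 80.3 and 78.3 CPM in WT and 64.4 and 56.4 CPM in LDHA-KO, with both LDHA-KO libraries below both WT libraries. The means were 79.3 ± 1.46 and 60.4 ± 5.72 CPM (SD, n = 2 each), and the log2 fold change was -0.40 (SE 0.17, 95% interval -0.74 to -0.07), just short of the threshold (edgeR adjusted p = 0.0612). With library totals alone it was called lower (-0.49, adjusted p = 0.0235), and with LDHA-KO replicate 2 left out it was -0.29 (adjusted p = 0.409).

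Oaz1 encodes the main antizyme, made by a ribosomal frameshift that polyamines promote (ENSMUSG00000035242). Its level was 34.4 and 39.5 CPM in WT and 31.7 and 41.4 CPM in LDHA-KO, so the WT values lay within the LDHA-KO range. The log2 fold change was 0.01 (SE 0.22, 95% interval -0.44 to 0.45, edgeR adjusted p = 0.987), with a sign that turned under 5 alternatives. Oaz2, a second antizyme gene (ENSMUSG00000040652), had 12.2 and 16.6 CPM in WT and 12.4 and 12.3 CPM in LDHA-KO, from 11 to 21 counts per library. Its log2 fold change was -0.22 with a 95% interval of -0.95 to 0.52 (SE 0.37, edgeR adjusted p = 0.699).

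For Oaz1 and Sms, most counts of the gene and its processed copy stood on the copy. The values above may depend on how reads were split between them, or on the strand that was counted. Neither was tested. The pseudogene Oaz1-ps had 133 and 142 counts in the WT libraries against 111 and 159 with LDHA-KO, where Oaz1 had 45 and 50 against 28 and 47. The copy thus held 74.0% to 79.9% of the pair's counts in the 4 libraries (in LDHA-KO replicate 1, exact 95% binomial interval 72.2% to 86.2%, counting error only). Sms-ps held 54.5% to 71.9% of the counts of Sms and its copy, with exact 95% intervals that reach from 43.6% to 82.4% over the 4 libraries. Oaz2-ps had 5, 7, 6 and 0 counts, and over all libraries Amd2 had 7 counts and Amd-ps3 had 2, against 71 for Amd1. By itself, Oaz1-ps had 101.8 and 112 CPM in the WT libraries against 125 and 140.0 CPM with LDHA-KO, which did not overlap, and missed the threshold (edgeR adjusted p = 0.0557, log2 fold change 0.32, SE 0.13). With the copies' counts added to their genes, none of the 4 was called: Oaz1 had a log2 fold change of 0.24 (edgeR adjusted p = 0.108), Sms 0.22 (0.348), Oaz2 -0.31 (0.517) and Amd1 -0.16 (0.756).

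**Figure D3:**
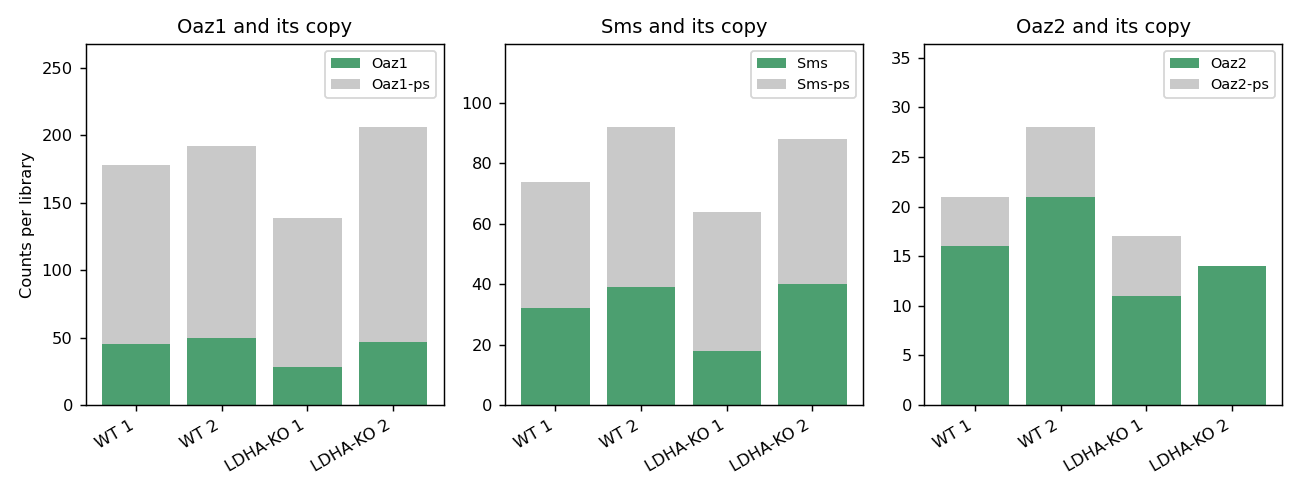
Counts per library (y axis, from 0) of Oaz1, Sms and Oaz2 in green, with those of the processed copy of each stacked in grey. The grey part is the larger in all 4 libraries for Oaz1 and Sms, and the smaller for Oaz2.

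In hypusination, Dohh rose and Dhps did not pass the test. Deoxyhypusine synthase, from Dhps, moves part of spermidine onto a lysine of eIF5A, and deoxyhypusine hydroxylase, from Dohh, completes hypusine. Dohh (ENSMUSG00000078440; chromosome 10, 81384434 to 81388352) had 68.9 and 53.0 CPM in WT and 81.4 and 90.7 CPM in LDHA-KO, both LDHA-KO libraries above both WT libraries. The means were 60.9 ± 11.2 and 86.0 ± 6.57 CPM (SD, n = 2 each), 1.42-fold higher (log2 fold change 0.50, SE 0.17, 95% interval 0.17 to 0.84, edgeR adjusted p = 0.0180). The call was lost with library totals alone (0.42, adjusted p = 0.0521), with DESeq2 (0.51, DESeq2 adjusted p = 0.286), and when replicate 2 of WT (0.33, adjusted p = 0.233) or of LDHA-KO (0.42, adjusted p = 0.185) was left out. The lncRNA model Gm48551 covers all of Dohh on the same strand, so its reads cannot be told apart from those of Dohh.

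Dhps (ENSMUSG00000060038) had 65.0 and 58.5 CPM in WT and 62.2 and 69.6 CPM in LDHA-KO, which overlap (log2 fold change 0.10, SE 0.17, 95% interval -0.25 to 0.45, edgeR adjusted p = 0.704). It overlaps Wdr83 by 128 bp on the opposite strand. Wdr83 held 328 to 420 counts per library against 55 to 85 for Dhps. Whether reads of Wdr83 entered the Dhps count depends on the strand setting, which is not given, and was not tested. Eif5a, the substrate of both enzymes (ENSMUSG00000078812), had 634 and 597 CPM in WT and 669 and 691 CPM in LDHA-KO. The LDHA-KO libraries were both higher, by a margin that did not pass the test (log2 fold change 0.14, SE 0.07, edgeR adjusted p = 0.0986). Eif5a overlaps Gps2 by 345 bp on the opposite strand.

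Ratios between members were taken within each library, which removes the scaling between libraries. Counts of Odc1 over Sat1, the entry to the pathway against its breakdown, were 12.9 and 9.73 in WT and 4.45 and 3.06 in LDHA-KO. The ratio was 3.03-fold lower in LDHA-KO, with no overlap between genotypes (log2 difference -1.60). This follows from the fall of Odc1 and the rise of Sat1 given above and is not a separate result. How often ratios of other gene pairs do not overlap was not tested. Odc1 over Oaz1 was 10.3 and 8.56 in WT and 7 and 5.09 in LDHA-KO, also without overlap (log2 difference -0.65, which was -0.42 without LDHA-KO replicate 2 and -0.88 without LDHA-KO replicate 1). Azin1 over Oaz1, 2.33 and 1.98 against 2.04 and 1.36, overlapped, as did Oaz2 over Oaz1 and Srm over Sms. The log2 difference of Azin1 over Oaz1, -0.37, ranged from -0.66 to -0.08 with 1 library left out, the smallest without LDHA-KO replicate 2. With the copies' counts added, Azin1 over Oaz1 no longer overlapped (0.590 and 0.516 in WT, 0.410 and 0.311 in LDHA-KO), and Odc1 over Oaz1 had a log2 difference of -0.91. An exact two-sided permutation test of 2 against 2 libraries cannot give a p below 0.333; Odc1 over Sat1 and Odc1 over Oaz1 reached that value, and 0.833 after adjustment over the 5 ratios. That test thus cannot pass a threshold of 0.05 for any ratio with these libraries.

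**Figure D4:**
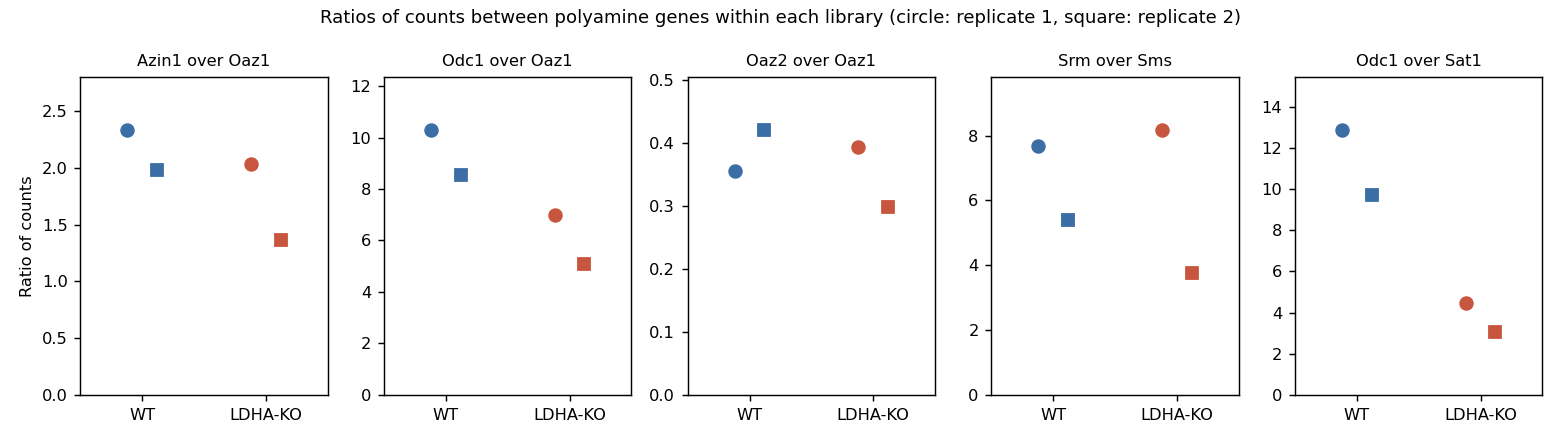
Ratio of the counts of 2 genes in the same library (y axis, from 0, its own scale in each panel) for the 5 pairs; points are libraries. Odc1 over Sat1 and Odc1 over Oaz1 are lower in both LDHA-KO libraries than in either WT library, and the other 3 pairs overlap.

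The genes around the pathway were taken from lists of 32 entries, of which 20 could be tested; 2 rose and 5 fell, 7 in all, again near the background share of all tested genes. Their median log2 fold change was -0.03. Among those called, the largest falls were in supply of S-adenosylmethionine. Of 9 tested genes of its supply and of methylthioadenosine salvage, 2 fell and 1 rose, where 31.0% of all tested genes were called. Mat2a, the catalytic subunit of methionine adenosyltransferase in T cells, had 130.1 and 128 CPM in WT and 73.5 and 52.0 CPM in LDHA-KO (log2 fold change -1.07, SE 0.15, edgeR adjusted p = 3.91e-07). Mat2b, its regulatory subunit, had 60.5 and 54.6 CPM against 24.9 and 31.7 CPM (-1.001, SE 0.21, edgeR adjusted p = 0.000295). Both subunits were lower in both LDHA-KO libraries. Ahcy encodes the enzyme that clears S-adenosylhomocysteine, the product of methylation, and rose from 16.1 and 19.0 CPM to 35.0 and 32.6 CPM (0.94, SE 0.27, edgeR adjusted p = 0.00589). Mat2a was also called by DESeq2; Mat2b (DESeq2 adjusted p = 0.0509) and Ahcy (0.193) were not, and Ahcy lost its call without WT replicate 1 (0.82, adjusted p = 0.0515). Mat2a overlaps Ggcx and the lncRNA Particl on the opposite strand, and Ahcy overlaps the lncRNA model Gm39966 on its own strand.

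Of 6 tested genes of ornithine and arginine supply, 2 fell and 0 rose, where 31.0% of all tested genes were called (15.4% lower, 15.6% higher). Both are enzymes that make the precursors of ornithine or turn it over. Aldh18a1, which makes pyrroline-5-carboxylate from glutamate, had 113 and 108 CPM in WT and 74.6 and 87.2 CPM in LDHA-KO (log2 fold change -0.44, SE 0.14, edgeR adjusted p = 0.0160). Oat encodes ornithine aminotransferase, which links ornithine to pyrroline-5-carboxylate; it had 49.7 and 58.5 CPM against 33.9 and 40.5 CPM (-0.52, SE 0.20, edgeR adjusted p = 0.0470). Neither was called by DESeq2 (adjusted p = 0.281 and 0.411). The call for Aldh18a1 was lost when replicate 1 of WT (-0.41) or of LDHA-KO (-0.33) was left out, and that for Oat in 6 of 10 alternatives. The arginase gene Arg1 held 1 to 7 counts and the mitochondrial ornithine carrier gene Slc25a15 held 4 to 9, both too low to be tested, and Otc and Agmat had 0 counts.

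Of 3 tested genes among the other polyamine genes, 1 fell, where 31.0% of all tested genes were called. Atp13a3 encodes a transporter that has been linked to polyamine uptake, and had 131 and 124 CPM in WT and 99.5 and 76.6 CPM in LDHA-KO (log2 fold change -0.56, SE 0.14, edgeR adjusted p = 0.00205). It lost its call without LDHA-KO replicate 2 (-0.35, adjusted p = 0.184) and with DESeq2 (-0.54, DESeq2 adjusted p = 0.132). Too low to be tested were Paox (3 to 6 counts), Oaz3 (10 and 9 counts in WT, 3 and 2 in LDHA-KO), Azin2 (2 and 2 against 0 and 0), Amd2 (1 to 3), Eif5a2 (4 to 18) and Apip (1 to 9), and Sat2 and Slc18b1 had 0 counts.

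Myc, an activator of Odc1 in other settings, moved the other way from Odc1 in the fit. Any link between Myc and Odc1 in these cells was not tested. Myc had 400.2 and 420 CPM in WT and 426 and 529 CPM in LDHA-KO, and the log2 fold change was 0.23 (SE 0.08, edgeR adjusted p = 0.0283). LDHA-KO replicate 1 lay close to the WT libraries, and without replicate 2 the value was 0.06 (adjusted p = 0.733). Myc also lost its call with library totals alone (0.15, adjusted p = 0.175), with DESeq2 (0.23, DESeq2 adjusted p = 0.306), with genes kept at CPM above 1 (0.23, adjusted p = 0.0655) and without WT replicate 1 (0.20, adjusted p = 0.136).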

How the data were processed

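The authors deposited 1 table of raw read counts, a row per gene and a column per library, with no normalization; whole numbers and unequal library totals were checked in the values. HTSeq 0.6.0, Trimmomatic 0.33, STAR 2.3.0e, FastQC 0.11.2 and Bowtie2 2.2.6 are listed, with build mm10 (GRCm38), per the submitters' processing notes. The role of each tool, the annotation release and the setting for strand were not stated there. Columns name a genotype and a number, and were taken as the RNA libraries since the values are per gene. The 8 chromatin and input samples were not analysed here. Rows repeated for 1557 IDs were identical, and 4195 extra rows were removed. Symbols came from a table of gene IDs; RefSeq (GRCm38.p6), joined on symbol, gave positions, overlaps and start windows.

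LDHA-KO was tested against WT with edgeR 4.0.16 in R 4.3.3 (quasi-likelihood F-test, TMM scaling, minimum count 10 and minimum total 15), with Benjamini-Hochberg adjustment over 9914 tested genes and calls at an adjusted p under 0.05. Adjusted p-values are edgeR's unless DESeq2 is named. SEs were derived from the F statistic, and 95% intervals from it and the model's degrees of freedom. The fit was tested on simulated counts drawn from its own model, which cannot show that calls are right for these libraries. Alternatives were library totals, RLE size factors, DESeq2 1.42.0, 2 other filters, each library left out, a replicate block and, chosen after seeing the data, summed copies. The p-values rest on counting error and on the spread between libraries, which was estimated in part across genes. That spread was small (coefficient of variation beyond counting error 4.03%, from the common dispersion) and may be technical. All 10 members are named, and of the pathway lists each called gene, each gene too low to be tested, Eif5a and Myc. The members and lists were chosen with earlier results of these data known.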

Additional observations from a re-analysis of the deposited data

How the results depend on the processing

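Of 184 recomputed fold changes of 18 named genes, 146 kept their direction and side of the threshold. DESeq2 called 1048 genes over the whole table (573 higher, 475 lower), 1 member (0 higher, 1 lower) and 1 pathway gene (0 higher, 1 lower), against 3076, 3 and 7 with edgeR. With library totals alone, 1 member was higher and 3 were lower, and 1 pathway gene was higher; with genes kept at CPM above 1, 1 pathway gene was higher. Leaving out each library in turn, the whole table gave 1973 to 2412 calls (1018 to 1231 higher, 955 to 1208 lower), the members 1 to 4 (0 to 2 higher, 1 to 2 lower) and the pathway genes 4 to 6 (0 to 2 higher, 3 to 4 lower); the lone library of a genotype is then assumed to vary like the other genotype's. Without LDHA-KO replicate 2, 1973 genes, 1 member and 4 pathway genes were called, and without WT replicate 1 also 4 pathway genes. Signs turned in 4 uncalled genes. Without 1 library, Amd1 ran from -1.06 to 0.156, Sms from -0.430 to 0.361, Oaz1 from -0.214 to 0.175 and Oaz2 from -0.422 to 0.0141. With library totals Sms was -0.0288 and Oaz1 -0.0772, and Oaz1 was -0.00346 with DESeq2 and -0.0133 with the replicate block. Of the ratios, Oaz2 over Oaz1 ran from -0.376 to 0.0238 and Srm over Sms from -0.769 to 0.344 (log2 differences) without 1 library; Azin1 over Oaz1 (-0.659 to -0.0784), Odc1 over Oaz1 (-0.884 to -0.423) and Odc1 over Sat1 (-1.87 to -1.33) stayed negative. Same-numbered libraries did not deviate together (correlation -0.03 across tested genes), so the replicate block shares only a number; with it 3 members and 7 pathway genes were called. The SE was highest for Oaz2 and Amd1 (0.37 and 0.36), which had the lowest counts of the 10 genes (7 to 23 per library).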
